A study of Mus musculus with 8 samples.

Results

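The 6 genes described here encode dual-specificity phosphatases (DUSPs): Dusp1, Dusp2, Dusp4, Dusp5, Dusp6 and Dusp10. They were taken by symbol from the 27998 genes of a single-cell RNA-seq matrix of CD45+ cells sorted from subcutaneous B16-OVA melanomas, where 18 further symbols name other Dusp genes. The tumors grew in female C57BL/6 mice inoculated at 7 weeks of age. Each treated mouse received adoptive cell transfer (ACT) of OT1 cells, CD45.1+ T cells with a receptor for an ovalbumin peptide. Untransduced (UT) OT1 cells were collected at days 5 and 12. PD1d/IL-2v cells secrete a PD-1 decoy and an IL-2 variant that does not bind CD25, PD1d/IL-33 cells secrete the decoy and IL-33, and each was collected at day 12. An equal mixture of these cell products, PD1d/IL-2v/IL-33 or hereafter combination ACT, was collected at days 5, 12 and 26, and non-treated tumors at day 5. The tumors of several mice were pooled into 1 library per treatment and day, so levels cannot be compared with replicates between any 2 conditions. The sort enriched CD8+ cells, and the CD8 T cells hold transferred and host cells together.

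DUSPs remove phosphate from both the threonine and the tyrosine of the activation loop of MAP kinases, and so end signals that run through ERK, p38 and JNK. Several are themselves induced by those signals and act as negative feedback. Dusp1, Dusp2, Dusp4 and Dusp5 encode nuclear enzymes, Dusp6 encodes a cytoplasmic enzyme that acts on ERK, and Dusp10 encodes an enzyme that acts on p38 and JNK. In T cells they set how strongly antigen receptor signals reach cytokine genes.

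Of 15700 barcodes, 12821 passed the cell filters, and 9999 of these were gated by raw unique molecular identifiers (UMIs) of marker genes into 5097 CD8 T, 1204 CD4 T, 2316 NK and 1382 myeloid cells. Pdcd1, which encodes PD-1, had at least 1 UMI in 2514 CD8 T cells and none in 2583. The libraries held 201 to 3655 passing cells each. UT ACT at day 12 and non-treated tumors were the smallest, with 42 and 78 CD8 T cells, and UT ACT at day 12 had 14 myeloid cells, under the minimum of 20 cells, so that sum was not used. Median UMIs per CD8 T cell ran from 5210 to 8325. Marker genes that the gates did not use were summed as CPM (UMIs of a gene scaled to a common library total). NK markers stood at 1666 to 2719 CPM in NK cells, 424 to 913 in CD8 T cells and 5.54 to 127 in CD4 T cells. The summed T cell markers (Cd2, Lck, Nkg7 and Cd5) did not separate T from NK cells. They stood at 2608 to 3934 CPM in CD8 T, 1495 to 3391 in CD4 T and 2246 to 4169 in NK cells. Nkg7 took the largest part of that sum in NK cells, at a median of 2896 CPM. Cd5 by itself did separate them, at 57.3 to 155 CPM in CD8 T, 231 to 470 in CD4 T and 0 to 2.92 in NK cells. Myeloid markers stood at 4899 to 6782 CPM in myeloid cells against 93.2 to 253 CPM in CD8 T cells. The gated NK cells also held 2223 to 3667 CPM of those myeloid markers, which include Tyrobp, a gene that NK cells use. Summed markers of non-leukocytes (Mlana, Pmel, Dct, Tyrp1, Col1a1 and Pecam1) stayed between 16.1 and 83.0 CPM in every class. Pecam1 took most of their UMIs in each class, at a median of 19.1 CPM in CD8 T and 51.5 in NK cells. The others had medians of at most 1.46 CPM. The myeloid class was mixed, and its make-up varied between libraries. In it, summed markers of conventional dendritic cells (Flt3, Zbtb46 and Cd209a) ran from 10.9 to 314 CPM. Those of neutrophils (S100a8, S100a9 and Csf3r) ran from 39.1 to 1032 CPM. Of passing barcodes, 95 (0.741%) occurred in more than 1 library. A level below is the CPM of the UMIs summed over a class of cells in 1 library.

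The 6 DUSP genes differed between classes of cells, and most had an order of their own: Dusp1 was highest in myeloid cells, Dusp2 in NK cells, and Dusp4 and Dusp10 in CD4 T cells, while Dusp5 was higher in NK and CD4 T cells than in the rest. In an edgeR quasi-likelihood fit over 31 sums of 8 libraries, with the library as a block, 6 of the 6 genes differed between CD8 T and NK cells at a Benjamini-Hochberg adjusted p under 0.05, where 35.8% of all 9250 genes tested did. Between CD8 T and CD4 T cells 4 of 6 differed, all lower in CD8 T cells, against 12.7% of genes lower there and 25.0% either way. Between CD4 T and NK cells 4 of 6 differed against 34.8%. The comparisons with myeloid cells called most of the transcriptome, 71.1% of genes for CD8 T, 64.4% for CD4 T and 68.4% for NK cells, so the 4, 5 and 3 DUSP genes called there are near that background.

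**Figure D1:**
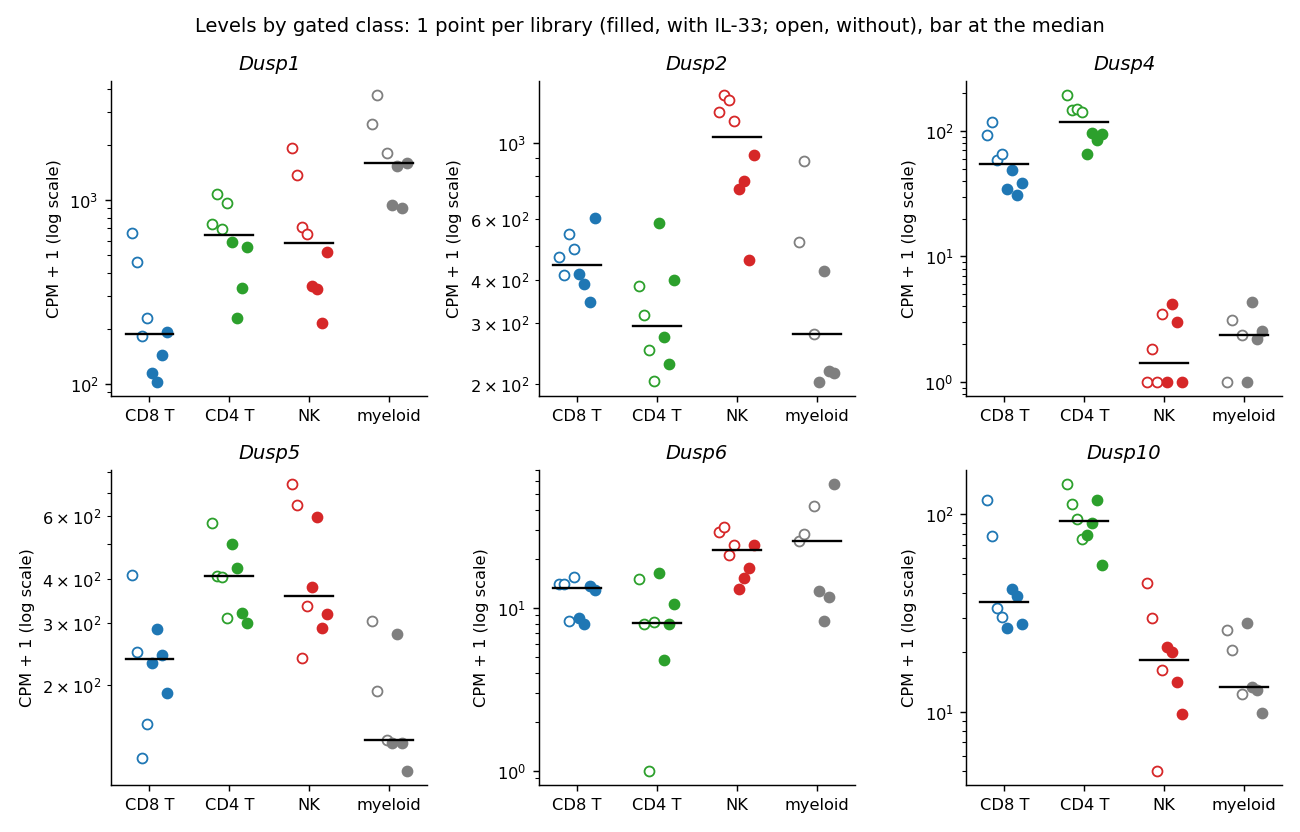
CPM + 1 on a log scale for each of the 6 DUSP genes (panels) in the 4 gated classes (horizontal axis), with 1 point per library and a bar at the median. Filled points are libraries with IL-33-secreting cells and open points those without. Dusp4 sits between 29.8 and 191 CPM in both T cell classes and at or below 3.33 CPM in NK and myeloid cells, and Dusp1 is highest in myeloid cells.

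Dusp1 was a gene of myeloid cells first and of CD8 T cells last. Its product, also called MKP-1, is an immediate early protein that switches off p38 and JNK in macrophages. The gene lies on chromosome 17 (chr17:26505591-26508472, GRCm38.p6, minus strand). Its 250 bases before the start (chr17:26508473-26508722, RefSeq, given 5′ to 3′ on the gene's strand) are shown because Dusp1 ranged 6.52-fold over libraries in CD8 T cells and 8.98-fold in NK cells. Capitals mark a cAMP response element (TGACGTCA) and an E-box (CACGTG).
Dusp1: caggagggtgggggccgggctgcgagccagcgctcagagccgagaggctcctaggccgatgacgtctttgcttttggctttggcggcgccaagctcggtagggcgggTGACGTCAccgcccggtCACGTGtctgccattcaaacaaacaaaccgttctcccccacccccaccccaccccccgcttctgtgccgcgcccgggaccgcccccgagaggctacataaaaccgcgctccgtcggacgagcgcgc
These motifs were searched on both strands and do not overlap each other. Of 32851 RefSeq promoters of the same length, 1.55% hold the first and 6.02% the second. No AP-1 letters (TGANTCA), held by 6.75% of promoters, and no CArG box, the serum response factor motif held by 1.47%, were in this window.

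In myeloid cells Dusp1 stood at 2590.4 CPM in non-treated tumors, 3698 after UT ACT at day 5, 1807 after PD1d/IL-2v ACT, 942 after PD1d/IL-33 ACT, and 1521, 905 and 1588 after combination ACT at days 5, 12 and 26. In CD8 T cells it ran from 102 to 662 CPM with a median of 186, in CD4 T cells from 228 to 1071 with a median of 643, and in NK cells from 214 to 1924 with a median of 584. The ranges of the T and NK classes overlapped widely across libraries, while within a library the myeloid sum was the highest in 7 of 7. The log2 difference of CD8 T from myeloid cells was -3.20 (SE 0.20, 95% interval -3.61 to -2.79, adjusted p = 7.5e-15), and of CD4 T from myeloid cells -1.86 (SE 0.19). CD8 T cells were also below CD4 T cells, by a log2 difference of -1.34 (SE 0.19, adjusted p = 2.4e-06). CD4 T and NK cells did not differ beyond their spread, with a difference of -0.05 (95% interval -0.42 to 0.33, adjusted p = 0.89).

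The immediate early genes, a list of 23 that includes Fos, Jun and Zfp36 and that tissue digestion can also raise, followed a like order. Summed, they took 12174 to 30761 CPM in myeloid cells, 6019 to 9707 in CD4 T cells, 3952 to 11772 in NK cells and 3445 to 6959 in CD8 T cells. Between CD8 T and myeloid cells 20 of 22 tested were lower in CD8 T cells and 2 higher. Atf3, a stress-induced transcription factor, differed by -7.04 on the log2 scale, Ier3 by -5.35 and Zfp36, which encodes an mRNA decay factor, by -5.02. The part of digestion in the Dusp1 levels was not tested.

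Dusp2 was highest in NK cells. It encodes PAC-1, a nuclear phosphatase of activated lymphocytes, and lies at chr2:127336159-127338377 on the plus strand. The 250 bases before its start (chr2:127335909-127336158) are shown for comparison with Dusp1, since both genes were lower in NK cells of libraries with IL-33 (below), and hold 1 E-box, in capitals.
Dusp2: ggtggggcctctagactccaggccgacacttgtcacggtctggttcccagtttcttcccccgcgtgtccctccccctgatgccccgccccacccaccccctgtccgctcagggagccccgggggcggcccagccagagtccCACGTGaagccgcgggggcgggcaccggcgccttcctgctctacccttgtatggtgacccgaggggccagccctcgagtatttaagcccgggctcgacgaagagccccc
None of the other motifs searched was in this window.

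In NK cells Dusp2 stood at 1226 CPM in non-treated tumors, 1369 and 1327 after UT ACT at days 5 and 12, 1154 after PD1d/IL-2v ACT, 735 after PD1d/IL-33 ACT, and 775, 455 and 921 after combination ACT at days 5, 12 and 26. In CD8 T cells it was the steadiest of the 6 genes, between 345 and 603 CPM over 8 libraries, a 1.75-fold range. After thinning each cell to 2000 UMIs, 54.8% to 81.6% of NK cells and 39.7% to 56.2% of CD8 T cells held a Dusp2 UMI. CD8 T cells were below NK cells by -0.95 (SE 0.23, adjusted p = 0.0016), and CD4 T cells by -1.59 (SE 0.24, adjusted p = 4.2e-06). CD8 T, CD4 T and myeloid cells were not told apart by this fit, and the difference of CD8 T from CD4 T cells, 0.63 (SE 0.24), had an adjusted p of 0.0503. The difference passed the threshold without the PD1d/IL-33 library (adjusted p = 0.0071) and without UT ACT at day 5 (adjusted p = 0.032), and that of CD4 T from myeloid cells without the PD1d/IL-33 library (adjusted p = 0.0028) and without combination ACT at day 26 (adjusted p = 0.025). With no filter on low counts both passed, at adjusted p-values of 5.4e-04 and 0.0069. Then 6 of the 6 genes were called between CD8 T and CD4 T cells, among 2685 genes in all, against 2317 with the filter.

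Dusp4 was a gene of T cells, with few UMIs in NK and myeloid cells. It encodes MKP-2, a nuclear phosphatase of ERK and JNK induced by antigen receptor signals, and lies at chr8:34807610-34819894. In CD4 T cells it stood at 191 CPM in non-treated tumors, 145 and 149 after UT ACT at days 5 and 12, 140.2 after PD1d/IL-2v ACT, 64.5 after PD1d/IL-33 ACT, and 94.4, 84.0 and 92.7 after combination ACT at days 5, 12 and 26. In CD8 T cells the values in the same order were 91.5, 117, 58.1, 64.3, 33.3, 48.2, 29.8 and 37.7 CPM. The CD8 T value was below the CD4 T value in 8 of 8 libraries. The CD4 T sums include cells with a Foxp3 UMI, which held more Dusp4 (below). In CD4 T cells without one, Dusp4 ran from 30.1 to 106 CPM over 6 libraries. After PD1d/IL-33 ACT it was 30.1 CPM there against 33.3 in CD8 T cells. The 117 CPM of CD8 T cells after UT ACT at day 5 was also above this range. The part of the Foxp3-detected cells in the order was not tested. NK and myeloid cells together gave 31 and 25 Dusp4 UMIs, at 0 to 3.18 and 0 to 3.33 CPM, so that their thinned shares of cells with a UMI, at most 0.402% and 0.752%, are the background against which 4.35% to 15.0% of CD8 T and 11.2% to 30.3% of CD4 T cells held one. CD8 T cells were above NK cells by 4.84 (SE 0.25, adjusted p = 1.6e-15) and below CD4 T cells by -0.89 (SE 0.15, adjusted p = 3.4e-05), both log2 differences.

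Dusp10 followed the same order as Dusp4. Its product, MKP-5, acts on p38 and JNK, and the gene lies at chr1:184034381-184075636. It ran from 54.3 to 142 CPM in CD4 T cells, 25.7 to 118 in CD8 T cells, 4.03 to 44.0 in NK cells and 8.82 to 27.1 in myeloid cells. CD8 T cells were below CD4 T cells by -0.99 (SE 0.14, adjusted p = 1.7e-06) and above NK cells by 1.27 (SE 0.15, adjusted p = 1.1e-07). NK and myeloid cells differed by 0.09, with a 95% interval of -0.29 to 0.48 that holds 0. Across the 31 sums the log2 levels of Dusp4 and Dusp10 correlated with a Pearson r of 0.86, as a description over sums that share libraries and classes.

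Dusp5 was higher in NK and CD4 T cells than in CD8 T and myeloid cells. It encodes a nuclear phosphatase that acts on ERK alone among the MAP kinases, and lies at chr19:53529145-53541809. The 250 bases before its start (chr19:53528895-53529144, plus strand) are shown because they hold 2 CArG boxes, in capitals, where 1.47% of promoters hold any.
Dusp5: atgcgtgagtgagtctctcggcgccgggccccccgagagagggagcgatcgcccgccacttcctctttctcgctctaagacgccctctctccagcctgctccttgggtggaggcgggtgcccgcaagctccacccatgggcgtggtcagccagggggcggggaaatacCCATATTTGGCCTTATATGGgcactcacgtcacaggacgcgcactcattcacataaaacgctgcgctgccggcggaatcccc
It ran from 238 to 739 CPM in NK cells, 299 to 573 in CD4 T cells, 123 to 409 in CD8 T cells and 114 to 302 in myeloid cells. CD8 T cells were below NK cells by -0.80 (SE 0.13, adjusted p = 9.5e-06) and below CD4 T cells by -0.66 (SE 0.13, adjusted p = 2.4e-04). Neither CD4 T from NK cells (-0.14, adjusted p = 0.45) nor CD8 T from myeloid cells (0.22, adjusted p = 0.14) differed beyond the spread, although the latter reached an adjusted p of 0.0049 when total UMIs replaced TMM scaling, 0.034 without UT ACT at day 12 and 0.026 without combination ACT at day 5.

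Dusp6 was sparse in every class. It encodes MKP-3, the cytoplasmic ERK phosphatase, and lies at chr10:99263231-99267489. It reached 6.98 to 14.5 CPM in CD8 T cells, 0 to 15.5 in CD4 T cells, 12.1 to 30.5 in NK cells and 7.25 to 56.8 in myeloid cells, from 470, 54, 294 and 377 UMIs. CD8 T cells were below NK cells by -0.90 (SE 0.23, adjusted p = 0.0031) and below myeloid cells by -1.43 (SE 0.23, adjusted p = 3.2e-06). At most 2.96% of thinned CD8 T cells held a Dusp6 UMI. The difference between CD8 T and CD4 T cells had an adjusted p of 0.071, or 0.040 without the PD1d/IL-33 library. It was 0.020 with no filter on low counts and 0.022 under the later cell filter of the study. Under that later filter 5 of the 6 genes were called, among 2104 genes in all, against 2317 in the main fit. The promoters of Dusp6 and Dusp10 in the RefSeq table held none of the motifs searched, and that of Dusp4 was not used here.

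For each DUSP gene, the 3 genes whose log2 levels over the 31 sums were most like its own are given by their Pearson r. For Dusp4 these were Cd6 (r = 0.978), Cd5 (0.977), which encode surface receptors of T cells, and Tnfrsf4 (0.961), which encodes the costimulatory receptor OX40. For Dusp1 they were Sepp1 (0.921), Jun (0.905) and H3f3b (0.886). For Dusp10 they were Ttc39c (0.880), Zc3h12d (0.876) and Dusp14 (0.872), for Dusp2 5830432E09Rik (0.850), Gm28347 (0.814) and Tmem37 (0.804), for Dusp5 Zfp865 (0.818), Man1b1 (0.807) and Pla2g6 (0.783), and for Dusp6 Rhob (0.800), Pik3ap1 (0.798) and Abi3 (0.779). These correlations are over 11988 genes with shared libraries and depth, and carry no test.

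Other genes of the pathway also differed between lymphoid classes. Of 9 other Dusp genes tested between CD8 T and CD4 T cells, 4 were lower in CD8 T cells, among them Dusp16 at -1.93 and Dusp14 at -1.02, and none was higher. Dusp14 was above NK cells in CD8 T cells by 4.56, and Dusp3 below myeloid cells by -4.65. Of 20 MAP kinases and their kinases, 3 were lower in CD8 T than in CD4 T cells and 1 higher with 2 lower against NK cells, where the largest difference was -0.73, of Mapk3, which encodes ERK1. Of 8 ERK feedback genes, 1 was higher and 3 were lower in CD8 T than in NK cells. Spry1, a Sprouty inhibitor of receptor signals, differed by 5.23 and its relative Spry2 by -3.41. The median log2 difference between CD8 T and NK cells was 0.04 for the other Dusp genes, -0.07 for the kinases and -0.43 for the feedback genes, against 0.01 over all genes.

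Within CD8 T cells, a Pdcd1 UMI marked cells with more Dusp4. Dusp4 in Pdcd1-detected against not-detected cells was 115 against 18.0 CPM in non-treated tumors, 139 against 40.5 after UT ACT at day 5, 121 against 20.3 after PD1d/IL-2v ACT, 39.6 against 26.8 after PD1d/IL-33 ACT, and 57.7 against 35.0, 34.5 against 22.3 and 54.4 against 15.1 after combination ACT at days 5, 12 and 26. The detected cells were higher in 7 of 7 libraries. UT ACT at day 12, with 15 detected cells, was not used. The fitted log2 difference, with the library as a block, was 1.45 (SE 0.21, edgeR adjusted p = 2.8e-04). Since detected cells had more UMIs, every cell was also thinned to 2000 UMIs, and the Pdcd1 split was redone on the thinned UMIs. The Dusp4 difference was then 1.47 (edgeR adjusted p = 3.3e-07), between groups of cells that differ in part from those above. An exact two-sided sign-flip test over the 7 libraries gave p = 0.0156, the smallest it can give, and 0.094 after Benjamini-Hochberg adjustment over the 6 genes, a threshold that 1 gene at the smallest p cannot pass.

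Among all 9056 genes tested, 21.7% differed with Pdcd1, and 2 of the 6 DUSP genes did. The second was Dusp2, lower in Pdcd1-detected cells in 6 of 7 libraries, by -0.32 (SE 0.10, adjusted p = 0.033). The call was lost, and the difference was -0.06 (adjusted p = 0.84) after thinning with the split redone, and -0.08 under the later cell filter of the study. Leaving out 1 library moved its adjusted p between 0.0019 and 0.12, and the call was lost without the PD1d/IL-2v, the PD1d/IL-33 or any combination library. Dusp1 (0.17, 95% interval -0.13 to 0.48), Dusp5 (0.08, -0.18 to 0.35), Dusp6 (-0.11, -0.63 to 0.40) and Dusp10 (-0.08, -0.35 to 0.20) were not called. After thinning Dusp1 reached 0.42 (adjusted p = 0.044) and Dusp5 0.37 (adjusted p = 0.042).

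**Figure D2:**
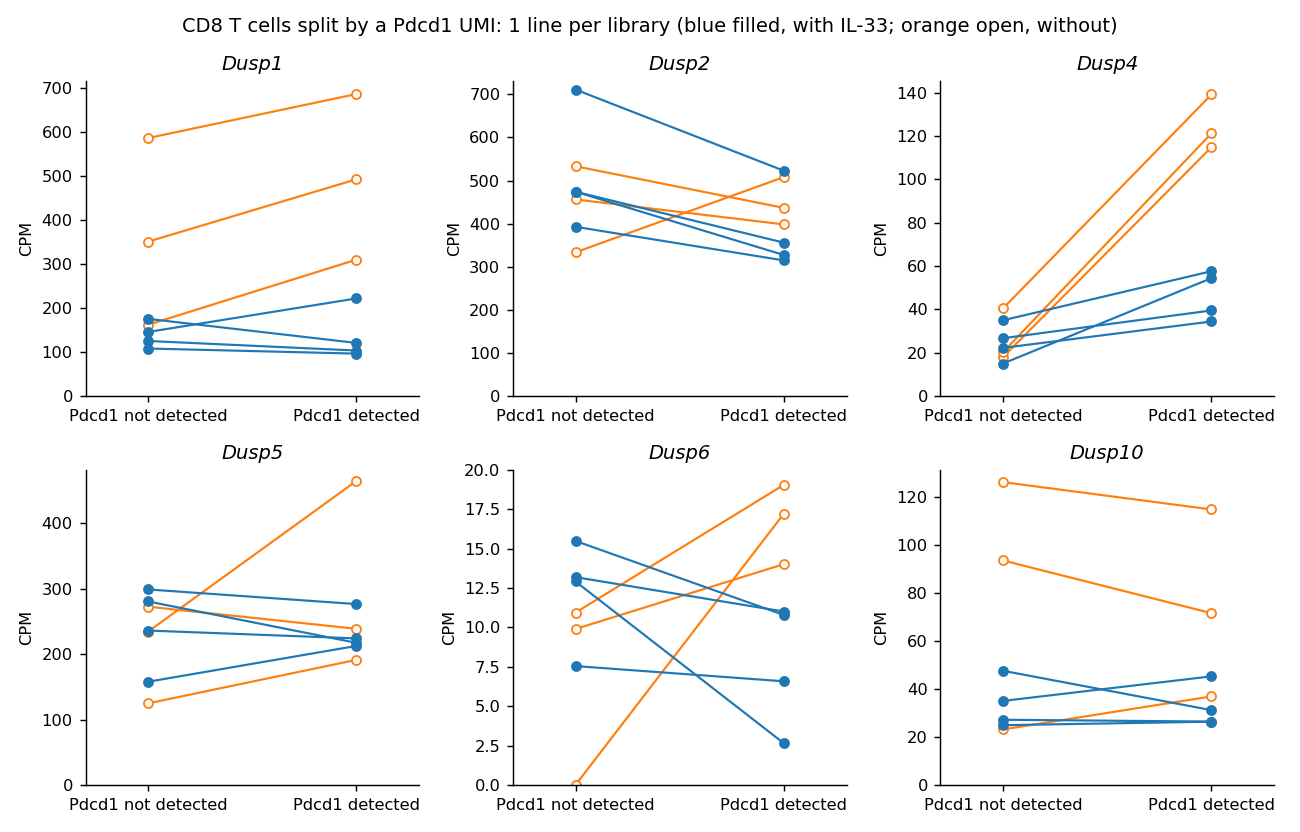
CPM of each DUSP gene in CD8 T cells without and with a Pdcd1 UMI (horizontal axis), with 1 line per library for the 7 libraries with at least 20 cells on each side. Blue filled points are libraries with IL-33-secreting cells and orange open points those without. Dusp4 rises along 7 of 7 lines, more steeply in the 3 libraries without IL-33, and Dusp2 falls along 6 of 7.

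Markers of activation moved with the same split. PD-1 itself is known as a receptor of activated and chronically stimulated T cells. Of 9 such genes, 6 were higher and 2 lower in Pdcd1-detected cells, with Havcr2 at 1.99, Lag3 at 1.70 and Tnfrsf4 at 1.48 on the log2 scale. Of the 8 other Dusp genes tested, Dusp14 was higher by 2.25, Dusp19 by 0.40, and Dusp7 was lower by -1.11. Of 21 MAP kinases and their kinases only Map3k8 was called, lower by -0.55, and of 8 ERK feedback genes Sh2b3 and Rasa2 were lower, by -0.99 and -0.34. Of 22 immediate early genes 3 were higher, Nr4a2 among them at 1.12, and 6 lower, with Klf2 at -1.75. The 3 genes most like Dusp4 over the 15 CD8 T sums were Rgs16 (r = 0.944), Hist1h3f (0.942) and Hist1h2ak (0.937), which encode a regulator of G protein signals and 2 histones, as a description. Without cells that held a UMI of Mki67 or Top2a, the Dusp4 difference was 1.70 (adjusted p = 2.2e-04).

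The Dusp4 difference with Pdcd1 was 1.56 to 2.15 on the log2(CPM + 10) scale in the 3 libraries without IL-33 and 0.43 to 1.36 in the 4 with it. These ranges did not overlap, but the gap depended on the added 10 CPM. As a plain ratio of CPM, combination ACT at day 26 gave 3.61 and UT ACT at day 5 gave 3.44. The Pdcd1 difference was tested between libraries with and without IL-33 as an interaction in the same model, chosen after the values had been seen. It gave -1.14 (SE 0.32) with an edgeR adjusted p of 0.13, and of all genes 0.850% were called. DESeq2 gave an adjusted p of 0.058. On leaving out 1 library the edgeR adjusted p ran from 0.0043 to 0.36. The lowest came without combination ACT at day 26, where Dusp1 was called as well (-0.91, edgeR adjusted p = 0.016), among 149 genes in all. Other lists moved with this result in the Pdcd1-detected cells, and their part in it was not tested. Summed markers of activation stood at 1095 to 1269 CPM with and 2019 to 2252 without IL-33, NK markers at 394 to 528 against 813 to 979, and immediate early genes at 3442 to 3794 against 5279 to 6877. None of these ranges overlapped, and how many of all genes lacked overlap was not counted. Of the 9 markers of activation Tigit, which encodes an inhibitory receptor, was called in the same interaction (-1.42, adjusted p = 0.0040), as were 3 of 22 immediate early genes, Klf2 (1.66), Nr4a3 (-0.94) and Nr4a1 (-0.72).

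The CD4 T gate joined Foxp3-expressing regulatory T cells and other CD4 T cells, and 3 of the 5 DUSP genes tested differed between cells with and without a Foxp3 UMI. The split by a Foxp3 UMI was added after the data had been seen, and 5 libraries had at least 20 cells on each side. Regulatory T cells in which no Foxp3 UMI was captured fall on the not-detected side. Unlike the Pdcd1 split, this split was not redone on thinned UMIs. Dusp2 in detected against not-detected cells was 129.9 against 536 CPM after UT ACT at day 5, 147 against 389 after PD1d/IL-2v ACT, and 123 against 319.9, 49.9 against 296 and 149.5 against 549.9 after combination ACT at days 5, 12 and 26. The detected cells were lower in 5 of 5 libraries, by -1.85 (SE 0.15, edgeR adjusted p = 3.2e-07), where 17.6% of 5695 genes were called. Dusp10 was lower by -1.16 (SE 0.22, adjusted p = 0.0011). Dusp4 was higher in 5 of 5 libraries, by 1.15 (SE 0.19, adjusted p = 3.4e-04), at 125 to 201 CPM in detected and 44.1 to 106 CPM in not-detected cells. These ranges over libraries did not overlap, as a description, since how many of all genes showed such a gap was not counted. Dusp1 was not called (-0.03, 95% interval -0.31 to 0.25), Dusp5 had an adjusted p of 0.066, or 0.0499 without UT ACT at day 5, and Dusp6 was too sparse to test.

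**Figure D3:**
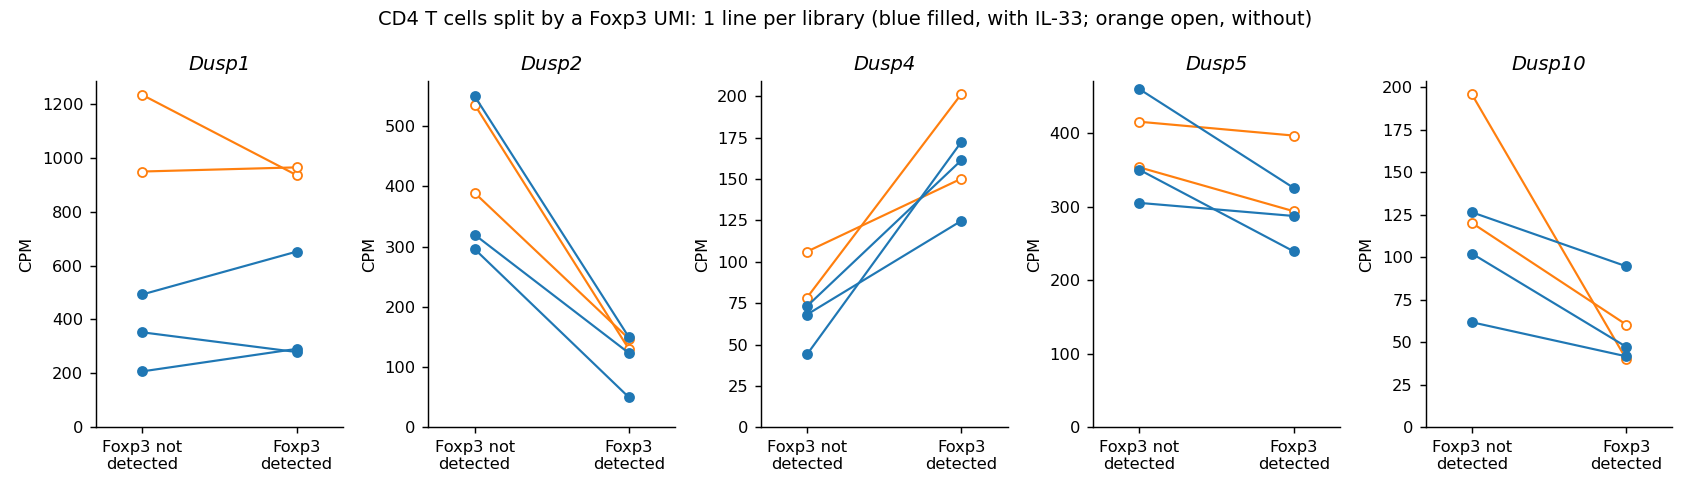
CPM of 5 DUSP genes in CD4 T cells without and with a Foxp3 UMI (horizontal axis), with 1 line per library for the 5 libraries with at least 20 cells on each side. Blue filled points are libraries with IL-33-secreting cells and orange open points those without. Dusp2 falls and Dusp4 rises along 5 of 5 lines.

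In these Foxp3-detected cells 16 of 19 immediate early genes tested were lower, with Fosb at -2.57 and Hspa1a at -2.52, while Dusp1 was not. Of 9 activation markers 5 were higher and 1 lower, led by Tnfrsf9 (2.15) and Havcr2 (1.83), and Spry1 was lower by -3.05. None of 4 other Dusp genes was called.

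Between libraries, Dusp1 and Dusp4 of CD8 T cells were lower after combination ACT than after UT ACT at day 5. With 1 library per condition these are ratios between 2 libraries, with 95% intervals that cover counting error only, and a ratio counts as past the fold at an absolute log2(CPM + 10) ratio of 1 with at least 50 UMIs. At day 5 Dusp1 stood at 461 CPM after UT ACT and at 102 CPM after combination ACT, a log2 ratio of -2.08 (-2.22 to -1.94), and Dusp4 at 117 and 48.2 CPM, a ratio of -1.13 (-1.33 to -0.94). These 2 of the 6 were past the fold, where 3.14% of 8762 genes were, but Dusp4 stayed within it with TMM scaling (-0.997) and without cycling cells (-0.82). Combination ACT at day 12 against UT ACT at day 5 gave -1.63 for Dusp1 and -1.68 for Dusp4, with 2.85% of genes past the fold. These pairs share the UT library. It was alone in its code, taken as the sequencing run (below), so treatment and run cannot be told apart in ratios to it. In other classes the Dusp1 ratio to UT ACT at day 5 reached -2.62 in NK cells, after combination ACT at day 12, and -2.19 in CD4 T cells, after combination ACT at day 5.

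At day 12 none of the 6 was past the fold in any pair. Combination ACT against UT ACT gave -0.33 for Dusp1 (-0.72 to 0.08), -0.77 for Dusp4 and 0.91 for Dusp5, where 7.73% of genes were past the fold and the UT library held 42 CD8 T cells. Against PD1d/IL-2v ACT the ratios were -0.64 for Dusp1, -0.90 for Dusp4 and 0.62 for Dusp5, with 2.05% of genes past the fold, and PD1d/IL-33 against PD1d/IL-2v ACT gave -0.93, -0.78 and 0.55, with 2.98%. Combination and PD1d/IL-33 ACT differed least, by at most 0.41 for Dusp10, with 1.65% of genes past the fold. From day 5 to day 12 to day 26 of combination ACT, Dusp1 stood at 102, 142 and 189.7 CPM and Dusp2 at 389, 345 and 603. The largest step was that of Dusp2 from day 12 to day 26, 0.79 (0.72 to 0.85), with 3.15% of genes past the fold, against 0.619% from day 5 to day 12. UT ACT against non-treated tumors at day 5 gave -0.71 for Dusp5 and -0.51 for Dusp1, with 1.93% of genes past the fold. Over these 9 pairs the median log2 ratio of all genes lay between -0.20 and 0.12. Only combination against UT ACT at day 12 and PD1d/IL-33 against PD1d/IL-2v ACT compared libraries that shared a run code.

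**Figure D4:**
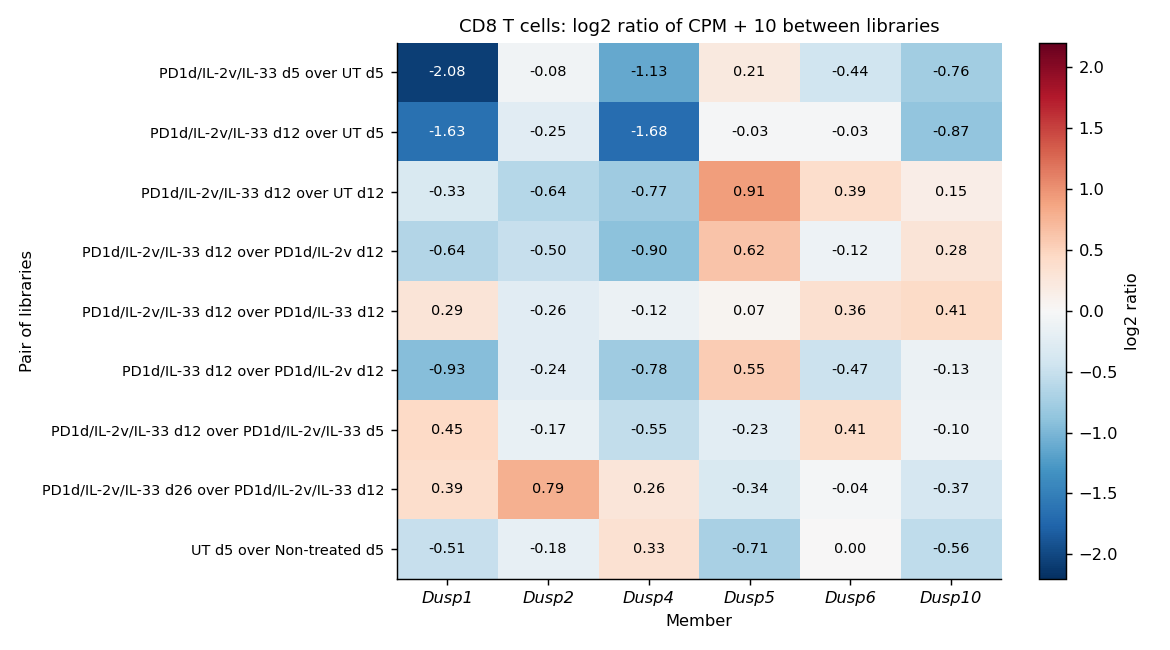
Log2 ratio of CPM + 10 in CD8 T cells between 9 pairs of libraries (rows) for the 6 DUSP genes (columns), with the value in each cell and the color scale in log2 units. The lowest values are those of Dusp1 (-2.08) and Dusp4 (-1.68), in pairs with UT ACT at day 5.

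In NK cells Dusp1 and Dusp2 were lower in the libraries with IL-33-secreting cells, and in the other classes no DUSP gene passed the test over all libraries. The 4 libraries with such cells and the 4 without were set against each other after these levels had been seen, and each side mixes treatments and days. All 4 with IL-33 also received decoy-secreting cells, as did only PD1d/IL-2v ACT on the other side, and the combination libraries received IL-2v as well. In this contrast IL-33 cannot be told apart from the decoy or from transduction. In NK cells Dusp1 was at 1924 CPM in non-treated tumors, 1372 and 714 after UT ACT at days 5 and 12 and 651 after PD1d/IL-2v ACT, against 340.0 after PD1d/IL-33 ACT and 327, 214 and 517 after combination ACT at days 5, 12 and 26. These groups did not overlap, and the log2 difference was -1.60 (SE 0.29, edgeR adjusted p = 0.0080). How many of all genes showed such a gap was not counted, so non-overlap here and below is a description. Dusp2 in NK cells did not overlap either, at 455 to 921 CPM with and 1154 to 1369 without, a difference of -0.68 (SE 0.18, adjusted p = 0.044). Of 8180 genes 4.35% were called in NK cells, and 0.880% were lower. Leaving out 1 library, the adjusted p of Dusp1 ran from 0.0015 to 0.073 and that of Dusp2 from 0.016 to 0.16. The Dusp1 call was lost without UT ACT at day 5 or combination ACT at day 5, and the Dusp2 call without any 1 of the libraries other than combination ACT at day 26. In an additive model with IL-2v the adjusted p-values were 0.056 and 0.12, so that both calls were lost.

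**Figure D5:**
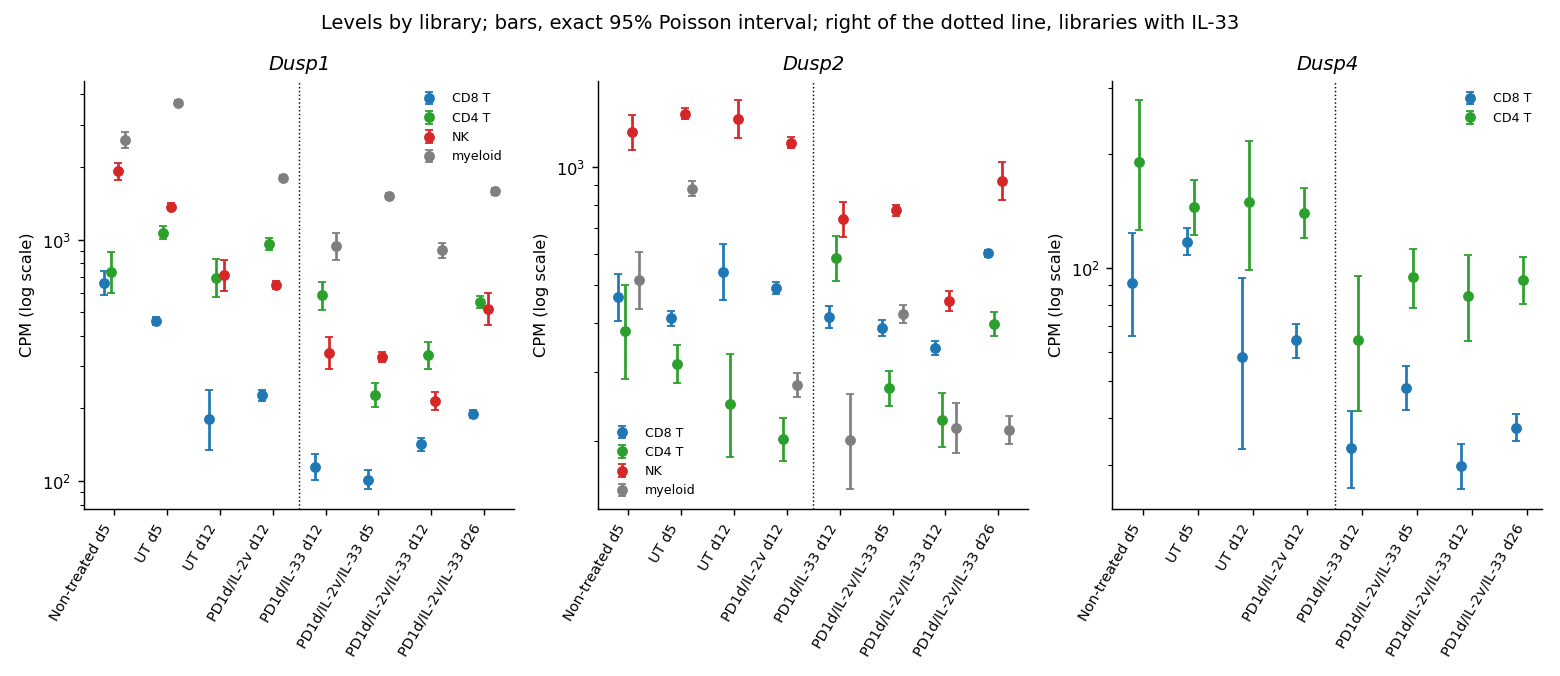
CPM on a log scale of Dusp1, Dusp2 and Dusp4 (panels) by library, colored by class, with exact 95% Poisson intervals. Libraries right of the dotted line received IL-33-secreting cells. Dusp1 and Dusp2 in NK cells and Dusp4 in both T cell classes lie lower on the right with no overlap. The share of all genes without overlap was not counted.

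In CD8 T cells Dusp4 did not overlap between these libraries, at 29.8 to 48.2 CPM with and 58.1 to 117 without IL-33, a difference of -1.09 (SE 0.21) with an adjusted p of 0.10. Dusp1 differed by -1.36 (SE 0.33, adjusted p = 0.14) and overlapped. Summed myeloid markers in these CD8 T sums moved along with no overlap, at 93.2 to 139 CPM with and 174 to 253 without IL-33, and their part was not tested. In CD4 T cells (168 to 263 against 188 to 418) and NK cells (2223 to 3667 against 2641 to 3580) they overlapped. Of 10086 genes edgeR called 0 (0.00%), with 1472 at an unadjusted p under 0.05, while DESeq2 called 118, Dusp1 and Dusp4 among them. In CD4 T cells Dusp1 (-0.93, adjusted p = 0.087) and Dusp4 (-0.70, adjusted p = 0.093) did not overlap and missed the threshold, where 0.269% of genes passed, while DESeq2 called Dusp1 (adjusted p = 0.034). The share of CD4 T cells with a Foxp3 UMI moved with this result, at 18.8% to 25.8% in libraries with IL-33 and 42.6% to 71.9% in those without, and its part was not tested. Within Foxp3-detected cells Dusp4 was at 201 and 150.2 CPM in the 2 libraries without IL-33 and 125 to 172 in the 3 with it, which overlap. In myeloid cells Dusp1 did not overlap either, at 905 to 1588 CPM in 4 libraries with and 1807 to 3698 in 3 without (-1.20, adjusted p = 0.16), where edgeR called 0 genes (0.00%), with 1225 at an unadjusted p under 0.05, and DESeq2 83, Dusp1 among them. Dendritic cell markers in these myeloid sums stood at 10.9 to 314 CPM with and 80.4 to 156 without IL-33. Neutrophil markers stood at 62.0 to 908 against 39.1 to 1032. Both overlapped, and the part of this make-up was not tested.

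In CD8 T, CD4 T and myeloid cells, edgeR gained calls on leaving out the library of combination ACT at day 26. Without it edgeR called 1025 genes in CD8 T cells, with Dusp4 (-1.07, adjusted p = 0.012) and Dusp1 (-1.51, adjusted p = 0.020) among them. In CD4 T cells it called 963, with Dusp1 (-1.07, adjusted p = 0.013) and Dusp4 (-0.71, adjusted p = 0.034), and in myeloid cells 459, with Dusp1 (-1.34, adjusted p = 0.031) and Dusp6 (-2.03, adjusted p = 0.012). In NK cells 1354 genes were called, and Dusp1 differed by -1.76. The main fits called 0 genes in CD8 T, 19 in CD4 T and 0 in myeloid cells. Over all fits that left out a library, these counts ran from 0 to 1025, 2 to 963 and 0 to 459. DUSP genes called ran from 0 to 2 in each class. In CD8 T cells the edgeR adjusted p of Dusp4 ran from 0.012 to 0.41 and that of Dusp1 from 0.020 to 0.45. The calls therefore depended on which library was left out.

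A code deposited with each library was taken as its sequencing run, which the labels do not state. Since 3 such runs each held 1 library with and 1 without IL-33, these values were also compared within runs. Dusp1 was lower with IL-33 in 3 of 3 runs in CD8 T cells (-1.75 to -0.33 on the log2(CPM + 10) scale), in CD4 T cells (-1.05 to -0.41) and in NK cells (-1.87 to -0.92), and in 2 of 2 in myeloid cells. Dusp4 was lower in 3 of 3 in CD8 T cells (-1.09 to -0.77) and in CD4 T cells (-1.01 to -0.76), and Dusp2 in 3 of 3 in NK cells (-1.52 to -0.41). Dusp6 was also lower in 3 of 3 in NK cells (-0.59 to -0.18), and Dusp2 and Dusp5 in 2 of 2 in myeloid cells. How many of all genes were lower in each run was not counted, and these libraries are among those on which the IL-33 contrast was chosen. With the run as a block in edgeR, added after seeing the data, no DUSP gene was called in any class. Dusp1 in NK cells then differed by -1.38 (SE 0.26, adjusted p = 0.12) and Dusp2 by -0.73 (SE 0.25, adjusted p = 0.53), so that both calls were lost, with 1 gene called there. In each of these pairs treatment, and in 1 of them also the day, differed besides IL-33. Dusp5 and Dusp10 had no common direction in CD8 T cells, with 1 and 2 of 3 runs lower.

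Immediate early genes moved with Dusp1 in CD8 T and myeloid cells, in part in NK cells, and not in CD4 T cells. Their sum in NK cells was 3952 to 5235 CPM with and 4611 to 11772 without IL-33, in CD8 T cells 3445 to 3967 against 4484 to 6959, and in myeloid cells 12174 to 16747 against 19118 to 30761. In CD4 T cells it was 6019 to 9707 against 6648 to 9626, although Dusp1 did not overlap there. The median log2 difference of the list in CD4 T cells was 0.46, with none called. Within runs the CD4 T sum with against without IL-33 was 7690 against 6648, 9707 against 7176 and 7433 against 9002 CPM. In NK cells it was 4898 after PD1d/IL-33 against 4611 after PD1d/IL-2v ACT, and lower with IL-33 in the other runs. In NK cells 4 of 21 tested were lower, Fos (-1.96), Jun (-1.61) and Zfp36 (-1.51) among them, and none was higher. Map3k5 and Map3k1, kinases upstream of JNK and p38, were higher by 1.41 and 1.31, and Myc lower by -1.95. These NK calls depended on the model and the libraries. The main fit called 356 genes, against 1 with the run as a block and as few as 0 on leaving out 1 library. The part of digestion or handling in these differences was not tested. IL-2v was compared between 4 libraries with and 4 without IL-2v-secreting cells, or 3 without in myeloid cells. There edgeR called 0 genes (0.00%) in each class, with 207 to 434 at an unadjusted p under 0.05 and 0 to 6 by DESeq2. In NK cells the Dusp1 difference was -1.22 (SE 0.39, edgeR adjusted p = 0.88).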

How the data were processed

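CD45+ cells of 8 B16-OVA tumor pools were profiled by droplet single-cell RNA-seq (10x Genomics 5′ kit), with 1 library per treatment and day. The authors ran Cell Ranger (2.2.0 in the submitters' notes, while the methods name another version) against GRCm38, aggregated the libraries and deposited counts, as UMIs per gene and barcode, without normalization. Barcode totals per library are round numbers, from 400 to 3700. The suffix of a barcode gave its library through the deposited aggregation table, which also holds 5 codes. These codes were taken as sequencing runs, which the labels do not state.

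Cells needed 500 to 6000 genes and 2000 to 40000 UMIs, with 87 ribosomal genes taking 5% to 60% of them and 13 mitochondrial genes under 10%. The first gate was on raw UMIs. CD8 T cells held Cd3 UMIs (Cd3d, Cd3e or Cd3g), Cd8 UMIs (Cd8a or Cd8b1) and no Cd4 UMI. CD4 T cells held Cd3 and Cd4 UMIs and no Cd8 UMI. NK cells held at least 2 UMIs of Ncr1 or Klrb1c and none of Cd3d, Cd3e, Cd4 or Cd8, while Cd3g was allowed. Myeloid cells held at least 5 UMIs of Lyz2, Csf1r, Cd68, Cd14 or Adgre1 and none of Cd3 or NK genes. T and NK cells with 5 or more of those myeloid UMIs, and cells with 2 or more B cell UMIs, were left out. No doublet caller was run, but 246 cells with Cd4 and Cd8 UMIs and 214 with Cd3 and myeloid UMIs stayed outside the gates. A gene used for a gate is no result.

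UMIs were summed per class and library (at least 20 cells) and tested with edgeR 4.0.16 (quasi-likelihood, TMM, low counts filtered by filterByExpr) in R 4.3.3. The class, Pdcd1 and Foxp3 fits had the library as a block. The IL-33 and IL-2v contrasts within a class had no block in their main fits. SEs are the absolute log2 fold change over the square root of F. P-values were adjusted by Benjamini-Hochberg over all genes tested. Cells of a library are no replicates, and the libraries differ in treatment. The p-values of the class, Pdcd1 and Foxp3 fits therefore measure whether a difference within libraries recurs over conditions. Those of the IL-33 and IL-2v contrasts take libraries of different treatments and days as replicates. Library ratios used log2(CPM + 10), which understates the change of low genes. The 95% Poisson and Clopper-Pearson intervals hold counting error alone. For shares of cells with a UMI each cell was thinned to 2000 UMIs. On simulated counts 96% to 100% of genes changed 2-fold were recovered in the class, Pdcd1 and NK fits. The simulated counts had a fixed dispersion, and changes were planted only in genes with many UMIs. In the NK fit all libraries shared a common profile, without differences between treatments or days. The recovery therefore does not measure power for sparse genes or for the IL-33 contrast in the data. DESeq2 1.42.0, other scalings, filters and gates and leaving out libraries were the alternatives. Contrasts by IL-33, IL-2v and Foxp3 were added after seeing the data. Where groups are said not to overlap, the share of all genes without overlap was not counted.

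The 6 genes, the gene lists and the tests were chosen with earlier results of these data known. The rule for other named genes took at most the 3 largest differences past the threshold per list and comparison, and the 3 genes most like each member. The lists are other Dusp genes, ERK feedback, MAP kinases and their kinases, immediate early genes, and markers of activation.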

Additional observations from a re-analysis of the deposited data

Results flagged for a closer look

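Some values stood apart from the other libraries of their kind. Within the 4 libraries with IL-33-secreting cells, combination ACT at day 5 was far above the others in myeloid cells for Dusp2, at 423 CPM, and for Dusp5, at 278 CPM. In the same libraries Dusp6 in myeloid cells was far above the others after combination ACT at day 26, at 56.8 CPM. Across these libraries the myeloid sums also varied in dendritic cell markers, from 10.9 to 314 CPM, and in neutrophil markers, from 62.0 to 908 CPM. The part of this make-up was not tested. Such gaps were looked for in 42 groups of 4 libraries, each mixing treatments and days, and chance marks about 1 in 20 groups.

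The Pdcd1 difference of Dusp6 in CD8 T cells was above 0 in each of the 3 libraries without IL-33 and below 0 in each of the 4 with it, and the mean log2(CPM + 10) differences lay 1.07 apart. In non-treated tumors the Pdcd1-negative side held no Dusp6 UMI in 22 cells. The test of this difference, the interaction in edgeR, gave -1.20 (SE 0.41) with an adjusted p of 0.21.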

How the results depend on the processing

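No paired analysis was possible by replicate number because each treatment and day had 1 library. The code taken as the sequencing run served as a block for IL-33 instead. Beside the library block, the alternatives were DESeq2, other scalings, filters and gates, and leaving out libraries. Of the values for single genes, 442 kept their direction and their side of the threshold under such settings, 16 passed the threshold only there, 13 lost it and 21 turned, and on leaving out 1 library 507 kept both, 19 gained the threshold, 14 lost it and 25 turned. Of the ratios between libraries 325 moved by less than their counting interval and 94 by more. Under the stricter gate 172 levels held and 14 moved, and without thinning 44 shares held and 142 moved. Where a result did not hold, the cause was not tested. None of the turned differences passed the threshold. CD4 T against NK cells gave, for Dusp1, 0.0135 with total UMIs, 0.0227 under the later cell filter, 0.22 without cycling cells, 0.15 without both small libraries and -0.16 to 0.11 on leaving out 1 library, and 0.00928 for Dusp5 without cycling cells. NK against myeloid cells gave 0.0783 for Dusp4 with total UMIs, and CD8 T against myeloid cells gave -0.00286 for Dusp2 with no block and -0.0916 to 0.43 on leaving out 1 library.

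Without the library block 1309 genes were called between CD8 T and CD4 T cells (2317 with it), 2030 between CD8 T and NK cells (3313) and 305 with Pdcd1 (1965). With Pdcd1, 1 DUSP gene (2) was called under no block, total UMIs, the later cell filter or without cycling cells, and 0 by the sign-flip test. With Pdcd1, 602 genes were called under the later filter, 919 without cycling cells, 332 after thinning and 1296 to 2000 on leaving out 1 library, with 1 or 2 DUSP genes. Dusp10 turned to 0.00271 with no block, 0.0919 under the later filter and 0.056 without cycling cells, and ran from -0.18 to 0.0396 on leaving out 1 library. Dusp6 turned to 0.27 under the later filter, 0.0101 without cycling cells and 0.12 in the sign-flip test, and ran from -0.30 to 0.0226 on leaving out 1 library. With Foxp3, DESeq2 called 577 genes (1003 in edgeR), and leaving out 1 library left 634 to 966. Dusp1 there gave 0.0365 with total UMIs and -0.13 to 0.0734 on leaving out 1 library. The difference of the Pdcd1 effect with IL-33 had 13 to 149 genes (77) and 0 to 2 DUSP genes on leaving out 1 library, the highest without combination ACT at day 26, and -0.50 to 0.21 for Dusp10.

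With IL-33, CD8 T cells had 118 genes and 2 DUSP genes by DESeq2, 11 genes with total UMIs (0 in edgeR with TMM), and on leaving out 1 library 0 to 1025 genes, 0 to 2 DUSP genes, -0.20 to 0.0434 for Dusp2 and -0.0176 to 0.50 for Dusp5. CD4 T cells had 110 genes and 1 DUSP gene by DESeq2, 50 genes with total UMIs and 4 in the additive model (19), -0.11 for Dusp5 with total UMIs and 0.0125 for Dusp10 in the additive model, and on leaving out 1 library 2 to 963 genes, 0 to 2 DUSP genes, -0.33 to 0.11 for Dusp10 and -0.11 to 0.20 for Dusp5. NK cells had 178 genes by DESeq2, 193 with total UMIs and 121 in the additive model (356), with 0 DUSP genes (2), 0.0149 for Dusp10 and 0.0216 for Dusp5 in the last, and on leaving out 1 library 0 to 1354 genes, 0 to 2 DUSP genes and -0.40 to 0.11 for Dusp5. Myeloid cells had 83 genes and 1 DUSP gene by DESeq2 and 2 genes in the additive model (0), and on leaving out 1 library 0 to 459 genes and 0 to 2 DUSP genes. With the run as a block 24 genes were called in CD8 T, 35 in CD4 T, 1 in NK and 27 in myeloid cells, with 0 DUSP genes in each, and Dusp5 in CD4 T cells turned to -0.0709. The highest of the counts on leaving out 1 library came without combination ACT at day 26. With IL-2v, DESeq2 called 1 gene in CD8 T, 3 in NK and 6 in myeloid cells (0 in edgeR), and the additive model 1 in myeloid cells, with 0.13 for Dusp4 in CD4 T and 0.0314 for Dusp6 in NK cells.

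With a pseudocount of 1 CPM, the genes past the fold numbered 875 (275 at 10 CPM) for combination against UT ACT at day 5, 956 (259) for combination ACT at day 12 against UT ACT at day 5, 1566 (604) against UT, 756 (186) against PD1d/IL-2v with 1 DUSP gene (0) and 458 (139) against PD1d/IL-33 ACT at day 12. They numbered 777 (245) for PD1d/IL-33 against PD1d/IL-2v ACT, 258 (55) and 1135 (311) for combination ACT at day 12 against day 5 and day 26 against day 12, and 589 (147) for UT ACT against non-treated tumors. Under the later filter 88 genes were past the fold for combination against PD1d/IL-33 ACT and 80 for UT ACT against non-treated tumors. DUSP genes past the fold were 1 (2) for combination against UT ACT at day 5 without cycling cells and with TMM. For combination against UT ACT at day 12 they were 2 (0) under the later filter and 1 under the stricter gate, without cycling cells, after thinning and with TMM. For PD1d/IL-33 against PD1d/IL-2v ACT they were 1 (0) under the stricter gate, after thinning and with the mean of per-cell CPM. The UT library of day 12 limits its ratios by depth, with 42 CD8 T cells.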
